A study of Mus musculus with 2 samples.

Results

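The 31 genes described here encode the digestive machinery of the lysosome in mouse bone marrow culture cells. They are 7 cysteine cathepsins (Ctsb, Ctsc, Ctsh, Ctsk, Ctsl, Ctss, Ctsz), 3 other proteases (Ctsa, Ctsd, Lgmn) and 7 hydrolases of sugars, lipids, phosphates and sulfates (Lipa, Hexa, Acp5, Gusb, Neu1, Man2b1, Arsb). The others are prosaposin and progranulin (Psap, Grn), the sterol exporters Npc1 and Npc2, 5 lysosomal membrane proteins (Lamp1, Lamp2, Cd63, Cd68, Gpnmb), 4 subunits of the proton pump (Atp6v0d1, Atp6v0d2, Atp6v1a, Atp6v1h) and the transcription factor Tfeb. They were chosen by symbol for their lysosomal function, with earlier results of these data known, and all 31 were found among the 47729 genes of the files. A lysosome digests material that a cell takes up or recycles. Its proton pump, the V-ATPase, acidifies the lumen, in which cathepsins and the other hydrolases work, and macrophages are known for a large lysosomal compartment. Tfeb and its relatives are known to bind E-box sequences near the start sites of many lysosomal genes.

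The data are unique molecular identifier (UMI) counts, one per captured transcript, from 2 single-cell libraries, 1 library per group. Both groups were femur bone marrow of C57BL/6NCrljOri, H-2b mice, grown with GM-CSF (the growth factor granulocyte-macrophage CSF), 40 ng/mL, for 5 days. The library without coculture holds CD11b-high Ly6C-high cells, for which the labels name RPMI medium. The coculture library holds CD11b-mid Ly6C-mid cells from marrow grown with human mesenchymal stromal cells (MSC) in culture inserts, at 1 MSC to 5 marrow cells after 24 h of preincubation, for which DMEM is named. How many mice were used, and their age and sex, is not stated in the labels. Effects of coculture, sort gate, medium and library cannot be told apart, because all of them differ between the groups. With 1 library per group, differences have no replicate check and are given without tests. Intervals are 95% intervals for counting error only, and they treat UMIs as independent.

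After filtering, 1817 cells with 27784963 UMIs (median 7016 per cell) remained without coculture, and 3005 cells with 29089241 UMIs (median 6031) in the coculture. Barcodes over 10% mitochondrial UMIs, which were left out, made up 15.5% and 2.87% of the libraries. Doublets were not removed, and 2 of the kept barcodes occurred in both libraries. Cells were sorted into 9 classes by marker genes, none of which is a member. Cells that passed both the macrophage and the neutrophil gate were kept as a class of their own. Without coculture 487 cells were macrophage-gated and 989 neutrophil-gated. The coculture library had 75 macrophage-gated, 358 neutrophil-gated, 467 eosinophil-gated, 413 basophil or mast cell-gated, 900 B lineage-gated, 261 mature dendritic cell-gated, 118 megakaryocyte-gated, 106 progenitor-gated and 95 T cell-gated cells. Both the macrophage and the neutrophil gate were passed by 99 and 89 cells, and 229 and 123 cells passed no gate. Cells of the other classes could also pass more than 1 gate. In the coculture these were 191 eosinophil-gated, 140 basophil or mast cell-gated, 125 B lineage-gated and 40 progenitor-gated cells. They were also 46 neutrophil-gated, 35 mature dendritic cell-gated, 15 megakaryocyte-gated, 13 macrophage-gated and 2 T cell-gated cells. Of the coculture classes outside macrophages and neutrophils, none had more than 8 cells without coculture.

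The members took 2.32% of all UMIs (644785) without coculture and 0.669% (194597) in the coculture library. By class, the share was highest in macrophage-gated cells without coculture, at 2.96% (2.95 to 2.97%). The 75 macrophage-gated cells of the coculture stood at 1.09% (1.07 to 1.11%). Cells that passed both gates stood at 2.41% and 1.15%. Neutrophil-gated cells held 0.905% (0.898 to 0.913%) without coculture and 0.871% (0.861 to 0.881%) in the coculture, so the libraries stood much closer in neutrophil-gated than in macrophage-gated cells. The remaining coculture classes ran from 0.795% in eosinophil-gated and 0.660% in basophil or mast cell-gated cells down to 0.283% in B lineage-gated and 0.228% in T cell-gated cells. Macrophage-gated cells, with 54.2% of the UMIs of the library without coculture, held 69.1% of its member UMIs. In the coculture library the largest holder was the eosinophil-gated class, with 32.5% of the member UMIs and 27.4% of all UMIs. The members were uneven in that class, with 26413 UMIs of Cd63, 7200 of Ctsh and 4802 of Arsb. Psap had 965 and Ctss 41 UMIs there.

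**Figure D1:**
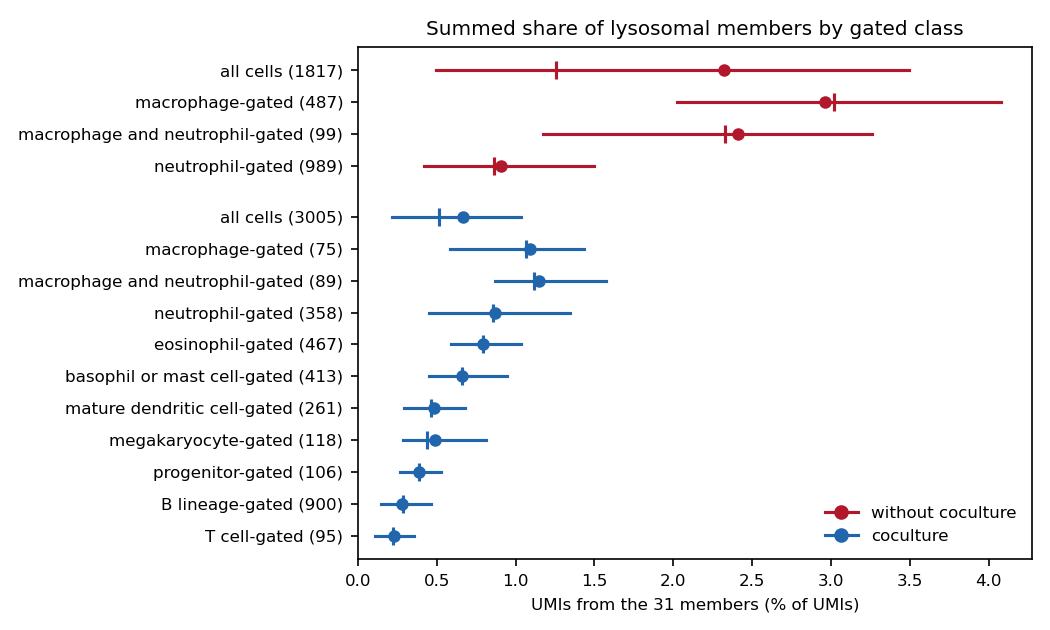
UMIs from the 31 members as a percentage of UMIs (x axis) in each gated class of at least 50 cells, with the number of cells in brackets. Dots are the share in the summed UMIs of the class, ticks the median over cells, and lines the 10th to 90th percentile of cells; macrophage-gated cells stand at 2.96% without coculture and 1.09% in the coculture, neutrophil-gated cells at 0.905% and 0.871%.

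Over all cells, 22 of the 31 members were at least 2-fold lower under coculture, 1 was at least 2-fold higher and 8 lay between. A ratio over all cells mixes the make-up of a library with the levels within its cell types. Of all 8668 genes measured (at 10 or more CPM, UMIs scaled to a library total of 1000000, in either library), 11.7% were at least 2-fold lower and 12.7% at least 2-fold higher. The median log2 ratio, coculture over without, was -1.59 for the members and 0.03 for all measured genes. With TMM scaling the median of all genes moved to -0.13 and that of the members to -1.73, with 23 lower and 1 higher. Without the macrophage-gated cells, 18 members were lower and 2 higher, with a median of -1.19 against 0.11 for all genes. The shares of 11.7% and 12.7% are for neither of these settings, whose counts stand here without shares of their own.

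The cysteine cathepsins differed widely among themselves. Ctsk, a collagen-degrading protease best known from osteoclasts, had 902 UMIs (32.5 CPM) without coculture against 14 UMIs (0.481 CPM) in the coculture, a log2 ratio of -6.08 (-6.95 to -5.32). Ctss, a cathepsin that trims the MHC class II invariant chain, had 2049 and 216 CPM, a ratio of -3.25. Ctsb, a cathepsin of many tissues, had 919.7 and 148.9 CPM, a ratio of -2.63. These 3 and the smaller differences of Ctsc, which activates granule serine proteases (-1.59), and Ctsz (-1.32) all had the lower level in the coculture. Ctsl stood at 332.7 and 226.1 CPM, a ratio of -0.56, which lies short of 2-fold. Ctsh, an aminopeptidase, was the only cathepsin with the higher level in the coculture, at 248.6 and 366.3 CPM (0.56), and passed 2-fold without the macrophage-gated cells.

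All 3 other proteases were at least 2-fold lower in the coculture, beside 11.7% of all measured genes. Ctsd, the main aspartic protease of the lysosome, stood at 3029 and 612.7 CPM (-2.31). Lgmn, the asparaginyl endopeptidase legumain, had 208.7 and 40.8 CPM, a log2 ratio of -2.35. Ctsa, the protective protein that keeps neuraminidase and beta-galactosidase active, had 493.7 and 112.5 CPM (-2.13).

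Among the hydrolases, 4 of 7 were at least 2-fold lower, beside 11.7% of all measured genes. Lipa, the acid lipase that frees cholesterol from its esters, had 161.6 and 23.9 CPM (-2.76). Hexa, the alpha subunit of hexosaminidase, had 557.9 and 135.9 CPM (-2.04). Man2b1, an alpha-mannosidase (-1.03), and Gusb, beta-glucuronidase (-1.01), lay just past 2-fold, while the neuraminidase gene Neu1 (-0.38) and Acp5, tartrate-resistant acid phosphatase (-0.14, -0.28 to 0.00), fell short of it. Acp5 had no stable direction: its ratio was 0.82 without macrophage-gated cells and 1.16 as a mean over cells. Arsb, arylsulfatase B, which removes sulfate from dermatan and chondroitin chains, was the 1 member at least 2-fold higher. It had 203 UMIs (7.31 CPM) without coculture against 5117 UMIs (175.9 CPM) in the coculture, a log2 ratio of 4.59 (4.39 to 4.80). Its locus (chr13:93771630-93943016, plus strand, GRCm38) overlaps other annotated genes, among them Gm47210 and Gm26527.

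Psap, whose product is cut into the saposins that help hydrolases reach their lipids, held 195481 of the member UMIs without coculture and 17983 in the coculture. Its level was 7036 CPM (7004 to 7067) and 618.2 CPM (609.2 to 627.3), a log2 ratio of -3.51. Without Psap the remaining 30 members took 1.63% and 0.608% of UMIs. Grn, the progranulin precursor, had 843.7 and 167.4 CPM (-2.33). The sterol exporters differed less, with Npc1 at 79.9 and 22.4 CPM (-1.83) and Npc2, its soluble partner, at 948.8 and 494.0 CPM (-0.94).

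Gpnmb, a membrane glycoprotein of macrophages and pigment cells, had the second lowest ratio of the members, at 757.5 and 11.7 CPM (-6.02, -6.18 to -5.86). Cd68, the usual marker of macrophage lysosomes, had 342.6 and 44.6 CPM (-2.94), and Lamp1, an abundant coat protein of the lysosomal membrane, 1084 and 382.5 CPM (-1.50). Its partner Lamp2 lay between (-0.86). Cd63, a tetraspanin of lysosomes and secretory granules, was higher in the coculture at 1179 and 1651 CPM (0.49); the ratio was -0.01 as a mean over cells of each cell's share. Of the proton pump subunits, Atp6v0d2, the d2 form found mainly in macrophages and osteoclasts, had 111.5 and 2.27 CPM (-5.62, -5.99 to -5.27). The d1 form Atp6v0d1, found in most tissues, was close to 2-fold lower (238.4 and 110.6 CPM, -1.11). The catalytic subunit Atp6v1a had 210.3 and 72.8 CPM (-1.53), and Atp6v1h, a regulatory subunit, 45.2 and 29.6 CPM (-0.61). Tfeb stood at 39.7 and 12.4 CPM (-1.68).

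**Figure D2:**
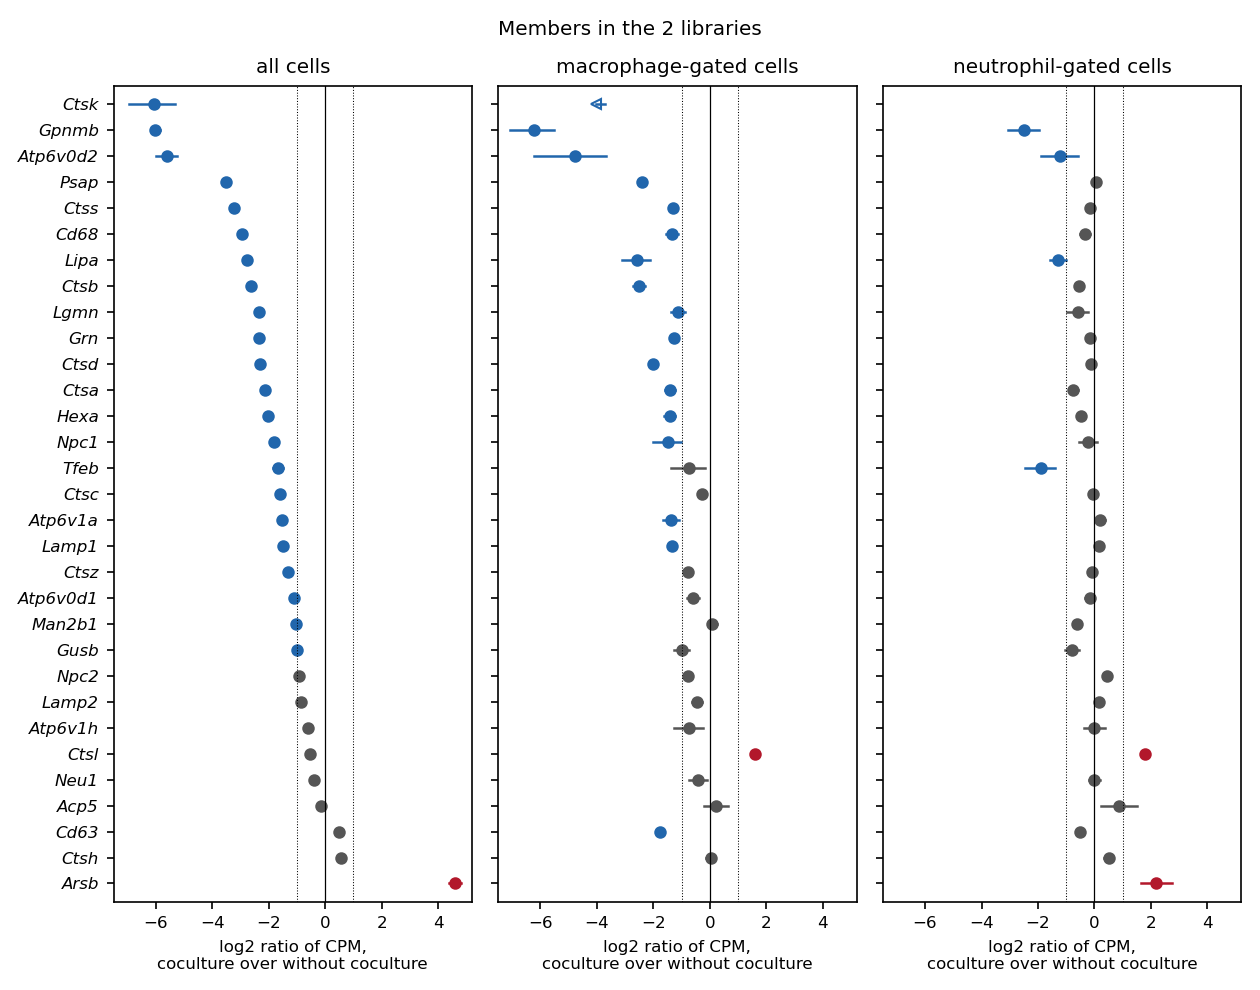
Log2 ratio of CPM, coculture over without coculture (x axis), for each member over all cells, in macrophage-gated and in neutrophil-gated cells, with 95% counting intervals as lines. Dotted lines mark 2-fold, blue and red points lie beyond it, the open triangle for Ctsk is an upper limit, and a member under 10 CPM in both libraries has no point; 22 members lie left of the 2-fold line over all cells, 17 in macrophage-gated and 4 in neutrophil-gated cells.

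The start sites of the members were searched for E-boxes, whatever the direction of their ratios. RefSeq promoter windows of build GRCm38.p6 (250 bases before to 50 after a start site) were matched by symbol for 26 of the 31 members, in 33 windows. Ctsb, Ctsh, Npc1, Atp6v0d2 and Atp6v1h had no entry. The letters CACGTG, which read the same on both strands, occurred in 7 of these 26 genes (26.9%) and in 8.09% of all 27025 genes with a window. The longer TCACGTG, read on both strands and always containing the first motif, occurred in 6 of 26 (23.1%) and in 4.29% of all genes. The 10-letter consensus of the CLEAR motif, a palindrome with CACGTG at its centre, occurred in 0 of 26 and in 0.370% of all genes. The 7 genes were Atp6v0d1, Atp6v1a, Ctsa, Ctsd, Ctsl, Lamp1 and Lgmn, whose log2 ratios over all cells ran from -2.35 (Lgmn) to -0.56 (Ctsl). Members with a window but no match ran from -6.08 (Ctsk) to 4.59 (Arsb). A match describes the letters only, and the part of E-boxes in the ratios was not tested. The upstream stretches below are shown for 6 of these genes, with CACGTG in capitals. They are on the strand of the gene and end before the RefSeq start site of the window. They hold all E-box letters found upstream in the members' windows except a further Ctsd match. By the GENCODE annotation only the Lamp1 stretch lies before the whole gene. The other 5 lie inside the extent of their gene, downstream of the start of a longer transcript: those of Ctsa, Ctsd and Ctsl come from stretches that overlap annotated exons of the same gene, and those of Lgmn and Atp6v1a overlap none. The further Ctsd match, 245 bases before its start, is not shown. The stretch around it (chr7:142388055-142388077) also lies before the whole gene. Lamp1 stands out among the 6 genes with 4 matches, the farthest 61 and the nearest 15 bases before the start.
Lamp1, chr8:13159080-13159160, plus strand: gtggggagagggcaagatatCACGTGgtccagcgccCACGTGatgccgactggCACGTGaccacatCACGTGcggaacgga
Ctsd, chr7:142387908-142387937, minus strand: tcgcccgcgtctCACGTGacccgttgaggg
Ctsa, chr2:164833749-164833772, plus strand: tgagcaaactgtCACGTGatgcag
Lgmn, chr12:102439116-102439161, minus strand: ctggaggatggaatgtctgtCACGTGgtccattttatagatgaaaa
Atp6v1a, chr16:44139365-44139410, minus strand: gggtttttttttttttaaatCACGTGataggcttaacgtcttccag
Ctsl, chr13:64370739-64370768, minus strand: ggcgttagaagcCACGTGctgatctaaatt

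Without coculture, macrophage-gated cells had the highest level of 30 of the 31 members among the 3 classes compared. Arsb, under 10 CPM in each class, was the exception. For some members, among them Neu1 and Tfeb, the intervals of the highest and the next class overlapped. The 229 cells that passed no gate were left out of this ranking. Their level was above the macrophage-gated level for Cd63 (1674 and 1228 CPM), with intervals apart. It was also above for Cd68 (443.9 and 425.2 CPM) and Neu1 (123.4 and 115.6 CPM), with overlapping intervals, and for no other member. The neutrophil-gated level as a percentage of the macrophage-gated level ran from 4.93% (Gpnmb) to 95.4% (Tfeb), with a median of 37.7%. The same percentage for the 10 macrophage gate genes, which chose the classes, was 0.390 to 14.3%. Gpnmb, Ctsk (8.63%), Ctss (9.65%), Atp6v0d2 (10.7%) and Lgmn (13.6%) therefore lay within the range of the gate genes. Ctsd stood at 3706 CPM in the macrophage-gated class and 1502 CPM in the neutrophil-gated class, and Cd63 at 1228 and 956 CPM. The part of free RNA from macrophages in the neutrophil-gated levels was not tested. Among neutrophil-gated cells the share of UMIs from members was 1.25% in the 327 cells of Leiden cluster 3, 0.831% in the 455 of cluster 4 and 0.503% in the 180 of cluster 5. Cluster 5 was led by the secondary granule genes Ltf, Camp and Ngp, and cluster 3 by Slfn1, Lilra6 and Lst1, all chosen after their values were seen. These clusters were made without the members.

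Within macrophage-gated cells without coculture, members varied together from cell to cell to different degrees. Levels were taken as log2 of UMIs per 10000 plus 1. The Pearson correlation across 487 cells between a member and the sum of the other members was 0.77 for Ctsd, 0.68 for Ctsb, 0.68 for Ctss, 0.65 for Psap, 0.65 for Lamp1 and 0.62 for Gpnmb. It was 0.16 for Ctsz, 0.11 for Tfeb and 0.01 for Atp6v1h. The cells share 1 library and differ in depth, and low counts pull a correlation towards 0, so these are descriptions. Ctsz was not a member of low count, with 15004 UMIs in 482 of the 487 cells. In the 75 macrophage-gated cells of the coculture the correlation was 0.54 for Ctsd, 0.52 for Grn, 0.50 for Ctsl and -0.18 for Gpnmb. Gpnmb had only 15 UMIs in 10 of these cells, so its value rests on few counts.

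Comparing the libraries within macrophage-gated cells, 17 of 30 measured members were at least 2-fold lower in the coculture, 1 was higher and 12 lay between. Of 8391 genes measured in this class, 12.0% were at least 2-fold lower and 7.97% at least 2-fold higher, with a median log2 ratio of -0.16 against -1.30 for the members. All 17 were also among the members that were lower over all cells, except Cd63, which stood at 1228 CPM and 361 CPM (log2 ratio -1.77). Gpnmb stood at 1078 and 14.3 CPM (16218 and 15 UMIs), a ratio of -6.23 (-7.07 to -5.51). Atp6v0d2 had 2395 and 6 UMIs, a log2 ratio of -4.79 (-6.24 to -3.67). Ctsk had 700 UMIs without coculture and 0 in the coculture class, at least 16.2-fold lower against a floor of 3 UMIs. Lipa (200.7 and 33.4 CPM, -2.59), Ctsb (1168 and 205.4 CPM, -2.51), Psap (9240 and 1737 CPM, -2.41) and Ctsd (3706 and 923 CPM, -2.01) were each at least 4-fold lower.

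Ctsl, a cathepsin of broad specificity, went the other way. It had 6266 UMIs (416.4 CPM) without coculture against 1328 UMIs (1269 CPM) in the coculture, a log2 ratio of 1.61 (1.52 to 1.69). One cell held 9.11% of the coculture UMIs. With every cell thinned to 1500 UMIs, leaving out 2 shallower cells in each library, 46.2% of 485 cells had a Ctsl UMI without coculture and 71.2% of 73 in the coculture, and 2.57% of 856 B lineage-gated coculture cells did. Unthinned, the shares were 95.9% and 94.7% at median depths of 24316 and 12809 UMIs, and 6.00% at 2859 UMIs in the B lineage. Gpnmb was found in 67.0% and 2.74% of thinned macrophage-gated cells (94.0% and 13.3% unthinned), and in 0.244% of 410 thinned basophil or mast cell-gated cells. Man2b1 (356.6 and 380.3 CPM), Ctsh (324.1 and 330.6 CPM) and Acp5 (42.3 and 49.7 CPM) differed little, with intervals of the log2 ratio of -0.06 to 0.24, -0.13 to 0.19 and -0.20 to 0.64. Atp6v0d1 (-0.60), Atp6v1h (-0.73) and Tfeb (-0.74) lay between 1 and 2-fold lower, so within this class the d2 subunit of the pump had a far lower ratio than the d1 subunit.

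Other markers moved with the macrophage class. Of the 16 macrophage markers none was at 0 in either library, and their summed level was 34842 CPM without coculture against 9279 CPM in the coculture. Without Lyz2 (lysozyme), the most abundant of them, the other 15 summed to 4026 and 6796 CPM, so the direction of the sum rested on that gene. The 5 C1q macrophage markers summed to 1078 and 5107 CPM. Lyz2 itself stood at 30816 and 2483 CPM, Mrc1 at 151.7 and 3.82 CPM, and C1qa at 79.3 and 1547 CPM, while the colony-stimulating factor receptor gene Csf1r stood at 386.8 and 392.7 CPM. Markers of other cells were also higher in the coculture class: the 9 megakaryocyte or platelet markers summed to 96.4 and 2256 CPM, of which Pf4 had 1879 CPM in the coculture, and the 8 progenitor markers to 271.0 and 1757 CPM, of which Srgn had 1620 CPM. The 10 dendritic cell markers summed to 2749 and 6490 CPM, with Flt3 and Xcr1 at 0 without coculture and Xcr1 at 0 in the coculture, and the 9 osteoclast markers to 135.5 and 285.7 CPM. The osteoclast markers Calcr (0 and 0 UMIs) and Oscar (1 and 0 UMIs) were at or near 0. Dcstamp had 221 of the 15049086 UMIs of the class without coculture and 29 of 1046572 in the coculture. As a share of UMIs, Dcstamp was therefore higher in the coculture class. The part of these markers in the member ratios was not tested. Different clusters held the class in the 2 libraries: 339, 96 and 43 of the 487 cells without coculture lay in clusters 0, 2 and 1, against 36, 31 and 7 of the 75 coculture cells in clusters 6, 1 and 7. Clusters 0 and 2 were macrophage-like, cluster 1 dendritic cell-like, cluster 6 neutrophil-like and cluster 7 mature dendritic cell-like by the same marker sets. Only 1 coculture cell lay in a macrophage-like cluster.

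Cluster 1 was the only one with more than 1 macrophage-gated cell in both libraries (43 and 31 cells, a comparison added after the data were seen). There the members took 1.66% of UMIs without coculture and 0.994% in the coculture. Of 29 measured members 8 were at least 2-fold lower and 4 higher, beside 11.7% and 14.9% of 8330 genes measured. The 8 were Gpnmb (523 and 3 UMIs, -5.86, -8.15 to -4.31), Atp6v0d2 (71 and 2 UMIs, -3.57), Cd63 (1606 and 245.5 CPM, -2.71), Psap (4602 and 1070 CPM, -2.11), Ctsb (-1.77), Ctsd (-1.22), Atp6v1a (-1.11) and Lamp1 (-1.08). The 4 higher members were Acp5 (4 and 21 UMIs, 3.97), Ctsl (347.8 and 1179 CPM, 1.76), Man2b1 (1.26) and Ctsh (1.19). Ctss and Lgmn turned direction here, with log2 ratios of 0.89 and 0.46 against -1.31 and -1.11 in the whole class. Ctsk had 0 UMIs in cluster 1 in both libraries.

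**Figure D3:**
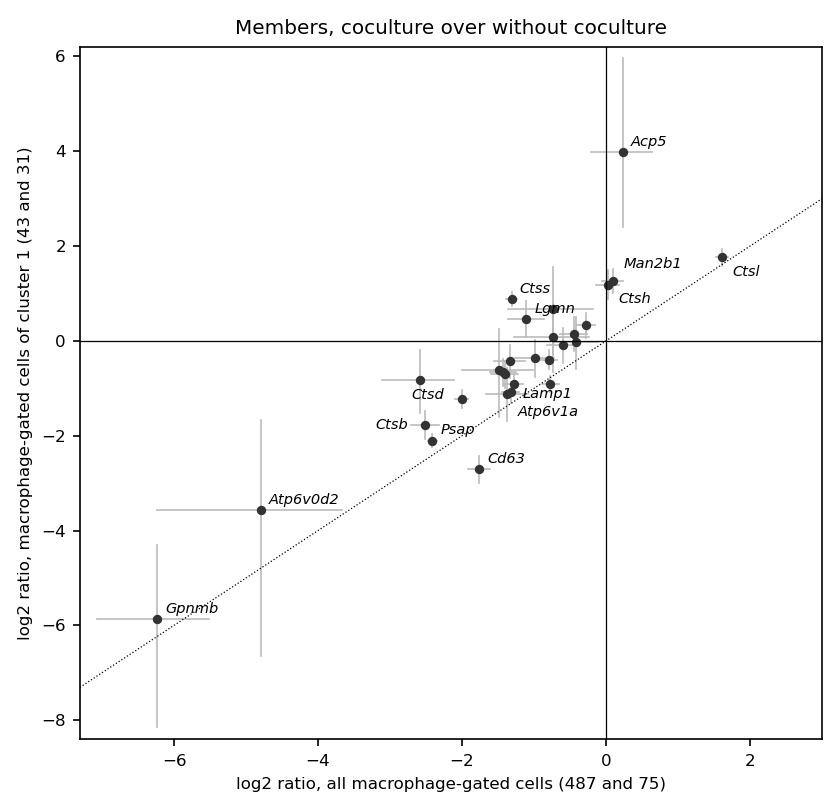
Log2 ratio of CPM, coculture over without coculture, for the members measured in both: all macrophage-gated cells (x axis, 487 and 75 cells) and their cells in cluster 1 (y axis, 43 and 31 cells), with 95% counting intervals as grey lines and equal ratios on the dotted line. The cells of the y axis are part of those of the x axis; Gpnmb, Atp6v0d2, Psap, Ctsb and Cd63 lie far below 0 on both axes, Ctsl above 0 on both, and Ctss and Lgmn left of 0 and above 0.

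Fewer members differed in neutrophil-gated than in macrophage-gated cells, but the share of members that were lower was above that of all genes. Of 30 measured members 4 were at least 2-fold lower in the coculture and 2 higher, beside 5.50% and 8.46% of 7635 genes measured, and 24 lay between. The median log2 ratio was -0.15, against -0.02 for all measured genes. Psap stood at 1995 and 2062 CPM (0.05, 0.01 to 0.09), Ctsd at 1502 and 1375 CPM (-0.13) and Ctss at 287.4 and 258.4 CPM (-0.15, -0.27 to -0.04), each within 1.2-fold between the libraries. Ctsl was higher, at 156.9 and 543.7 CPM (1.79, 1.68 to 1.90), and was found in 18.7% of 923 and 48.4% of 345 thinned cells (47.5% and 82.4% unthinned, at median depths of 4555 and 7472 UMIs). The 4 lower members were Gpnmb (53.1 and 9.44 CPM, -2.49), Tfeb (39.5 and 10.6 CPM, 256 and 36 UMIs, -1.90), Lipa (91.6 and 37.5 CPM, -1.29) and Atp6v0d2 (110 and 25 UMIs, -1.20). Of these, Gpnmb and Atp6v0d2 sat in few cells: 5 of the 989 cells without coculture held 44.2% and 56.4% of their UMIs, and 1 coculture cell held 43.8% of the 32 Gpnmb UMIs. Macrophage markers summed to 15117 and 2966 CPM in neutrophil-gated cells (827 and 569 CPM without Lyz2), with Ms4a7 alone at 0 in the coculture, while the C1q macrophage markers summed to 76.5 and 179 CPM. Megakaryocyte or platelet markers summed to 8.19 and 1120 CPM there and progenitor markers to 1536 and 7020 CPM. The part of these markers in the ratios was not tested.

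Arsb was also higher in neutrophil-gated cells, at 6.33 and 28.6 CPM (41 and 97 UMIs, 2.18, 1.64 to 2.74), but 5 of the 358 coculture cells held 61.9% of the 97 UMIs. Eosinophil markers moved with it: the 9 markers summed to 55.4 CPM without coculture, where Prg2, Epx, Prg3, Ear1 and Il5ra were at 0, and to 672 CPM in the coculture, where none was. As a percentage of the eosinophil-gated level, Prg2 in these cells stood at 0.795%, Epx at 0.703% and Arsb at 4.75%. Prg2 and Epx are gate genes of the eosinophil class, so the gate itself keeps their percentages low in other classes. Arsb is not a gate gene, so its percentage cannot be measured against theirs. The part of eosinophil transcripts in this difference was not tested. Neutrophil-gated cells also lay in different clusters: 455, 327 and 180 of the 989 cells without coculture in clusters 4, 3 and 5, and 304 of the 358 coculture cells in cluster 6, led by Arg1, Cxcl3 and Nos2 (chosen after their values were seen). In cluster 5, with 180 and 28 such cells (a comparison added after the data were seen), members took 0.503% and 0.470% of UMIs. Of 26 measured members 2 were lower and 1 higher there, beside 16.0% and 10.4% of all genes, and Ctsl had 80.3 and 132.0 CPM (0.72, 0.19 to 1.21). With Leiden clusters in place of gates, neutrophil-like cells (1094 and 534) had 2 members lower and 4 higher, counts that stand without a share of all genes. The log2 ratio of the summed share was 0.27 there against -0.06 with gates, so the direction of this small difference depended on how the cells were chosen.

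In the coculture library, no single class led the members. Cells that passed no gate were left out of this ranking too. Cells that passed both the macrophage and the neutrophil gate had the highest level of 12 members, macrophage-gated cells of 6, eosinophil-gated cells of 4, mature dendritic cell-gated cells of 3, B lineage-gated and T cell-gated cells of 2 each, and neutrophil-gated and progenitor-gated cells of 1 each. In 18 members the intervals of the 2 highest classes overlapped, among them Ctsa, Ctsd, Grn, Lamp1 and Ctsz. Psap was highest in the cells that passed both gates (2480 CPM), followed by neutrophil-gated (2062 CPM) and macrophage-gated cells (1737 CPM), and stood at 108.6 to 319.3 CPM in the 7 remaining classes. Ctss ran from 1199 CPM in macrophage-gated and 553 CPM in mature dendritic cell-gated cells through 326.1 CPM in the B lineage down to 5.15 CPM in eosinophil-gated cells.

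**Figure D4:**
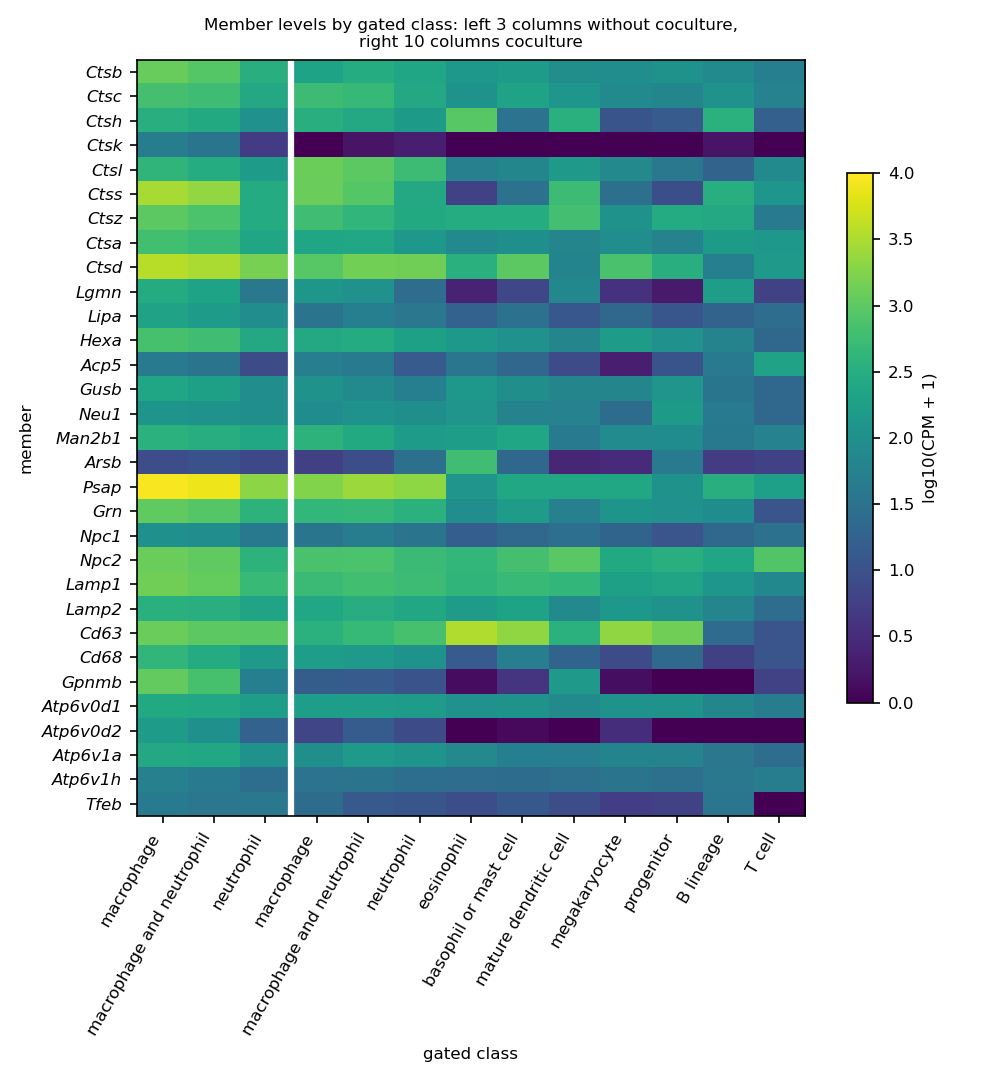
Level of each member (rows) in each gated class of at least 50 cells (columns), as log10 of CPM plus 1, with the 3 classes without coculture left of the white line and the 10 coculture classes right of it. Psap, Ctsd and Ctss are brightest in the macrophage column without coculture; in the coculture Arsb and Ctsh are highest in the eosinophil column, Gpnmb in the mature dendritic cell column and Acp5 in the T cell column.

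Eosinophil-gated cells led in Arsb, Ctsh, Cd63 and Gusb. Their Arsb level was 602.8 CPM, and the next class, progenitor-gated cells, had 42.2 CPM. They held 93.8% of the Arsb UMIs of the coculture library, and an Arsb UMI was found in 57.0% of 456 eosinophil-gated cells thinned to 1500 UMIs (95.1% unthinned) against 0.584% of 856 thinned B lineage-gated cells (1.56% unthinned). Arsb was also among the 10 leading genes of the eosinophil class, with the gate genes Prg2, Epx and Prg3. Ctsh stood at 903.9 CPM in eosinophil-gated and 359.9 CPM in B lineage-gated cells, and the eosinophil class held 67.6% of its UMIs. Cd63 stood at 3316 CPM in eosinophil-gated, 2159 CPM in megakaryocyte-gated and 2155 CPM in basophil or mast cell-gated cells, against 23.6 CPM in the B lineage and 10.5 CPM in T cells. Gusb (137.1 CPM) and the progenitor-gated level (120.9 CPM) had overlapping intervals. Neu1 was highest in progenitor-gated cells (150.3 CPM), with eosinophil-gated cells next (121.4 CPM). The library without coculture had no eosinophil-gated cell, so its low Arsb level of 7.31 CPM comes from other classes.

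The other classes each led in a few members. Mature dendritic cell-gated cells held 72.4% of the coculture Gpnmb UMIs, at 138.4 CPM in that class against 14.3 CPM in the next, macrophage-gated cells. This level was below the 1078 CPM of macrophage-gated cells without coculture. They also had 963.1 CPM of Npc2, whose interval overlapped that of T cell-gated cells (810.4 CPM). B lineage-gated cells held 48.3% of the Lgmn UMIs, at 171.1 CPM, above 131.9 CPM in macrophage-gated cells, and had the highest Tfeb level, at 36.1 CPM, with macrophage-gated cells at 24.8 CPM and overlapping intervals. Acp5 was highest in T cell-gated cells at 203.9 CPM, from 39 UMIs in 33 of 95 cells, with macrophage-gated cells next at 49.7 CPM. The T cell class had a median of 1884 UMIs per cell and 0 UMIs of Tfeb, Ctsk and Atp6v0d2. Ctsk was nearly missing from the coculture library, with 14 UMIs in all. Of these, 7 lay in cells that passed no gate and 4 in its highest gated class, neutrophil-gated cells.

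**Figure D5:**
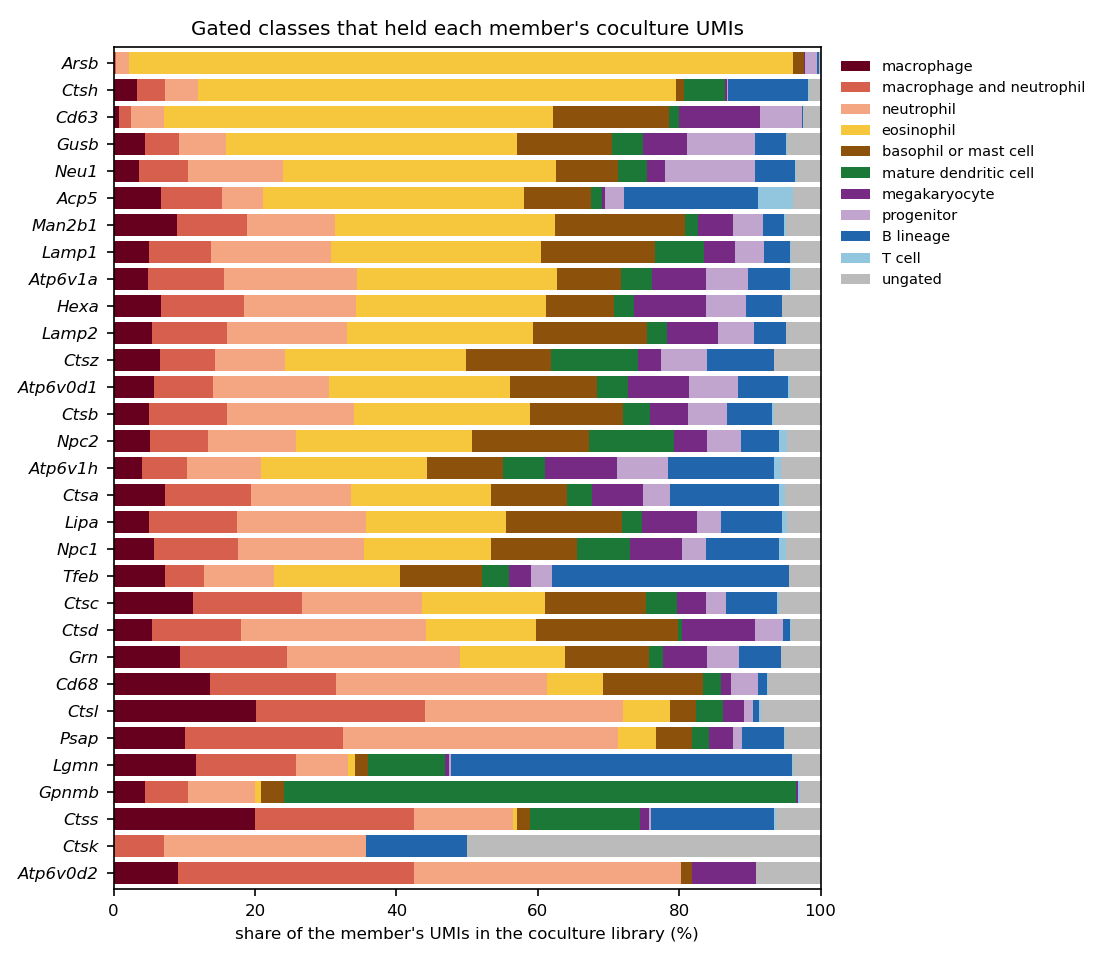
Share of each member's UMIs in the coculture library (x axis, percent) held by each gated class (colours), with members sorted by the eosinophil-gated share. Arsb (93.8%), Ctsh (67.6%) and Cd63 (55.0%) have most of their UMIs in eosinophil-gated cells, Gpnmb 72.4% in mature dendritic cell-gated and Lgmn 48.3% in B lineage-gated cells.

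A further 103 lysosomal genes were set beside the members. Over all cells 88 were measured, of which 35 were at least 2-fold lower in the coculture, 3 higher and 50 between, beside 11.7% and 12.7% of all genes. In macrophage-gated cells 29 of 88 were lower and 5 higher, beside 12.0% and 7.97% of all genes. In neutrophil-gated cells 3 of 82 were lower and 2 higher, at or below the 5.50% and 8.46% of all genes. Of 13 other measured proton pump genes 7 were lower over all cells (median log2 ratio -1.02), led by Atp6v1b2 (242.3 and 48.5 CPM, -2.32) and Tcirg1, the a3 subunit (164.6 and 38.9 CPM, -2.08), while Atp6v0a2 (-0.33) and Atp6v1f (-0.16) had the smallest differences. Of 31 other hydrolases and cofactors 9 were lower and 1 higher (median -0.74). Pla2g15, a lysosomal phospholipase, had 74.9 and 17.4 CPM (-2.11), Ifi30, the thiol reductase of antigen processing, 291.5 and 386.7 CPM (0.41), and Glb1, beta-galactosidase, 39.0 and 90.4 CPM (1.21). In macrophage-gated cells Ifi30 stood at 369.3 and 883.8 CPM (1.26).

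Over all cells 11.7% of all measured genes were at least 2-fold lower and 12.7% higher. Beside these shares, 10 of 17 other membrane proteins and transporters were lower. Slc11a1, a metal transporter of phagosomes, had 36.7 and 3.88 CPM (-3.24) and Clcn7, a chloride-proton exchanger, 64.8 and 9.87 CPM (-2.72), while the channel gene Tpcn1 (0.01) and the transporter gene Abca2 (0.53) had the highest ratios. Of 9 sorting genes 3 were lower and 1 higher, with Nagpa (-1.43) and the mannose 6-phosphate receptor gene Igf2r (-1.36) lowest and Gga2 (0.44) and Gnptg (1.06) highest. Of 12 measured genes of the Tfeb family and nutrient sensing 6 were lower. The Tfeb relatives Tfec (99.4 and 13.3 CPM, -2.90) and Mitf (41.5 and 6.26 CPM, -2.73) were lowest, and the Ragulator and Rag genes Lamtor2 (0.06) and Rraga (0.00) highest. Within macrophage-gated cells Tfec (-1.63) and Mitf (-1.71) were also lower, and within neutrophil-gated cells they stood at 0.24 and -0.46.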

How the data were processed

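The authors deposited raw UMI counts per gene and barcode, not normalized. Cell Ranger, bcl2fastq and the build mm10 are named, per the submitters' processing notes, and the matrices name software version 3.1.0, per the file headers. The annotation release, the strand setting of the counting and the rule that chose barcodes are not stated in the labels or headers. Genes that overlap others, such as Ctsl and Npc1 with antisense genes, and the near-identical Stfa family are therefore uncertain. Positions are from GENCODE M21 (GRCm38, the same build as mm10) and promoter sequences from RefSeq (GRCm38.p6).

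The libraries held 28294186 UMIs over 2180 barcodes and 29217182 over 3134. Barcodes were kept from 500 genes up, where mt- genes held no more than 10% of UMIs. Scrublet in scanpy 1.11.5 called 0 and 5 barcodes (0.104%), so it has not worked and none was removed. A cell took the class whose gate genes, per 10000 UMIs, stood highest against a threshold. Gate genes were subsets of marker lists without members, and gates and thresholds were set after seeing the data. Classes under 50 cells were not compared. The added comparisons within clusters 1 and 5, with under 50 coculture cells each, fall outside this rule. Leiden clusters (resolution 0.8) were made without the members. UMIs were summed per class and scaled to CPM, with exact Poisson intervals, conditional binomial intervals for ratios and Clopper-Pearson intervals for shares. The fold rule was run on data simulated with counting noise only, which cannot show how far libraries of the same group would differ. Alternatives were other filters, scalings (TMM, edgeR 4.0.16), gates, clusters and cutoffs. The members and lists were chosen with earlier results of these data known. All members are named, with the 2 lowest and 2 highest measured genes of each other list over all cells and macrophage and osteoclast markers. One gene that this rule names is not reported here.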

Additional observations from a re-analysis of the deposited data

How the results depend on the processing

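Over all cells, 29 of the 31 members kept their direction under every alternative run and 23 their side of 2-fold; the exceptions in direction were Cd63 and Acp5. In macrophage-gated cells 21 of 31 kept their direction and 17 their side, and in neutrophil-gated cells 14 and 18. The count of lower members ran from 16 (3-fold) to 25 (1.5-fold), and that of higher members was 2 as a mean over cells and 2 without macrophage-gated cells. Of the other lysosomal genes, 21 were lower at a minimum of 50 CPM, 55 at 1.5-fold and 14 at 3-fold, and 5 were higher as a mean over cells, 5 at a minimum of 1 CPM and 1 at 3-fold.

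The log2 ratio of the summed share, -1.79 over all cells, was -1.79 over all barcodes, -1.75 without the 5% of cells with most UMIs, -1.26 without macrophage-gated cells, -1.29 as a median over cells and -1.41 without Psap. In macrophage-gated cells, at -1.44, it was -1.50 without the 5% of cells with most UMIs, -1.50 with doubled thresholds, -1.55 as a mean and -1.50 as a median over cells, -1.15 without Psap, -1.35 with cells passing both gates included and -1.55 with low S100a8 and S100a9. In cluster 1 it was -0.74, with 8 members lower and 4 higher, and Ctss (0.89) and Lgmn (0.46) turned direction. In neutrophil-gated cells, at -0.06, it was -0.23 with doubled thresholds, 0.27 with Leiden clusters, -0.10 as a mean and -0.011 as a median over cells, -0.086 without Psap, 0.0047 without cells passing more than 1 gate and -0.10 in cluster 5. There 2 members were lower with Leiden clusters, 2 at a minimum of 50 CPM and 2 in cluster 5; 4, 1 and 1 were higher. Atp6v0d2 turned direction with Leiden clusters (0.35). The counts of members under these alternatives stand without shares of all genes, except for clusters 1 and 5, whose shares are given above. The cause of these changes was not tested.

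With Leiden clusters, macrophage-like cells could not be compared (569 and 1 cells). No paired analysis was possible because each group is 1 library. Low UMI counts limit Ctsk, Arsb, Gpnmb and Atp6v0d2 in single classes.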

Other observations

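Cystatins are natural inhibitors of the cysteine cathepsins. Of 6 measured over all cells, 0 were at least 2-fold lower under coculture and 1 was higher (no test was run), Cst7 (cystatin F, an inhibitor that enters lysosomes), at 10.7 and 140.6 CPM (log2 ratio 3.72). Of all genes measured, 11.7% were at least 2-fold lower, so a count of 0 in 6 says little. Cstb (-0.92) and Stfa1 (-0.85) were lower by less than 2-fold. Cst7 stood at 5.38 and 4.78 CPM in macrophage-gated cells and at 17.5 and 33.9 CPM in neutrophil-gated cells, so its difference over all cells lay largely outside these classes. In macrophage-gated cells 3 of 5 measured cystatins were higher, Stfa3 (17.3 and 176.8 CPM, 3.35), Stfa1 (27.4 and 73.6 CPM, 1.43) and Cst3 (1998 and 4884 CPM, 1.29; cystatin C, named after its values were seen), and Cstb was lower (859.3 and 404.2 CPM, -1.09). In neutrophil-gated cells Stfa3 (279.1 and 916.0 CPM, 1.71) and Stfa2 (824.4 and 1851 CPM, 1.17; named after its values were seen) were higher. Of all genes measured in macrophage-gated cells, 7.97% were at least 2-fold higher and 12.0% lower. In neutrophil-gated cells these shares were 8.46% and 5.50%. The Stfa genes are near-identical copies whose reads can be shared, so their single values are uncertain.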
